A study of Mus musculus with 55 samples.

Results

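The E2F transcription factors and the retinoblastoma (pocket) proteins were followed at the pre-mRNA level through the exit from mitosis of mouse embryonic stem (ES) cells. The 10 members, namely E2f1, E2f3, E2f4, E2f5, E2f6, E2f8, Tfdp1, Rb1, Rbl1 and Rbl2, were taken by gene symbol from both deposited pre-mRNA tables. All 10 were listed in each table, among 9911 genes for the CCNA-GFP cells and 10237 genes for the CTCF-AID cells.

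Both lines derive from E14Tg2a ES cells of 129/Ola mice and were grown in serum and LIF. CCNA-GFP cells carry a Cyclin A reporter, while CTCF-AID cells are a single clone in which the CTCF protein bears an auxin-inducible degron, so that auxin (IAA) triggers its degradation. Mitotic cells were obtained in both lines with 10 µM of the CDK1 inhibitor RO-3306 for 4 h, then 50 ng/ml of nocodazole for 4 h, followed by shake-off and release, and asynchronous cells received neither drug. In the +IAA arm, 0.5 mM IAA was given to mitotic cells for 2 h and kept during the release. Its asynchronous cells had IAA for 4 h according to the methods of the study, whereas the sample labels give 2 h. The -IAA arm carried the same tagged allele without auxin. The CCNA-GFP series held 19 libraries, with 3 mitotic, 3 asynchronous, 1 at 50 min and 2 at each of 20, 30, 40, 60, 90 and 120 min. The CTCF-AID series held 36 libraries, 18 per arm, with 3 mitotic, 3 asynchronous and 2 at each of 20, 40, 50, 60, 90 and 120 min. Replicates were biological according to the methods of the study, although the labels do not say whether they came from separate cultures. Ctcf pre-mRNA says nothing of the degraded protein, so the depletion itself was not checked here.

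E2F proteins bind the promoters of genes needed for DNA replication and cell division. E2f1 and E2f3 are classed as activators, E2f4 and E2f5 as repressors that act with pocket proteins, E2f6 as a repressor that acts without them and E2f8 as an atypical repressor that binds DNA without a DP partner. Tfdp1 encodes DP1, the partner with which the other E2F proteins of this list bind DNA. Rb1, Rbl1 (p107) and Rbl2 (p130) encode the pocket proteins, which hold E2F proteins in check until cyclin-dependent kinases phosphorylate them. ES cells have a short G1 phase in which much of this control is relaxed.

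Pre-mRNA level here is the TPM, a share of all transcripts of a library scaled for length, of the unspliced isoform that the authors added to each gene. Low values were whole multiples of a step above 0.01 that differed between libraries, and the factor behind it is not given in the sources used here, which limits what a level set across libraries means. Differences are on the log2(TPM + 1) scale, which understates the change of low genes, and are given ± SE from limma fitted on all genes with Benjamini-Hochberg adjustment. A difference between stages was called at an adjusted p under 0.05. The sum of the listed pre-mRNA TPM moved with the stage, from 13747 to 17245 in mitotic CCNA-GFP libraries to between 30992 and 42576 at 60 min, and from 18606 to 23302 to between 38416 and 39173 in the -IAA arm. Setting every library to the same total brought the median difference of all genes at 60 min from 0.79 to 0.02 in CCNA-GFP, from 0.63 to 0.06 in the -IAA arm and from 0.63 to 0.06 in the +IAA arm. Calls of members on this second scale (equal totals) are counted beside the share of all genes called on it, and the values at 60 min are given on both scales where the direction or call differed. In such bulk libraries, fewer cells that express a gene and less RNA per cell cannot be told apart.

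Of 8 ES cell markers, 7 were listed in both tables (Sox2 was not), with a summed level of 28.1 to 117 TPM in CCNA-GFP and 37.2 to 138 TPM in CTCF-AID libraries. None of 5 endoderm markers was listed, and of 7 fibroblast markers 0 were listed in CCNA-GFP and 2 in CTCF-AID (Col1a1 and Thy1, at most 3.42 TPM in sum). Of 5 mesoderm and neural markers, 4 were listed (T, Pax6, Neurod1 and Nes), with a sum between 1.18 and 17.5 TPM, and their part in the results was not tested.

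The members span a wide range of gene lengths. In GRCm38 (mm10), the smallest are E2f4 on chr8:105297663-105305370 (plus strand, 7708 bp) and E2f1 on chr2:154559407-154569892 (minus strand, 10486 bp), and the largest is Rb1 on chr14:73183673-73325822 (minus strand, 142150 bp). Between them are E2f8 on chr7:48866429-48881596 (minus strand), E2f5 on chr3:14578641-14606309 (plus), E2f6 on chr12:16810963-16839742 (plus), Tfdp1 on chr8:13338751-13378448 (plus), Rbl2 on chr8:91070057-91123844 (plus), Rbl1 on chr2:157145893-157204534 (minus) and E2f3 on chr13:29906575-29986063 (minus). Positions are those of the Gencode gene models, and the pre-mRNA isoform covers their exons and introns.

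Promoters of the families are known to be bound by E2F proteins themselves, and the sequences before the start are shown for E2f8, the member that rose most, for the pair of paralogs Rbl1 and Rbl2, of which Rbl2 rose and Rbl1 did not, and for E2f3 and Tfdp1, which hold matches to an E2F motif. RefSeq promoters (GRCm38.p6) were found for 7 of the 10 members, in 9 entries. Each line gives the 100 bases before the start, 5′ to 3′ on the strand of the gene, with matches to TTTNNCGC (E2F) or TTTGAA (the cell cycle homology region, CHR), on either strand, in capitals.
Rbl1 (chr2:157204535-157204634, minus strand): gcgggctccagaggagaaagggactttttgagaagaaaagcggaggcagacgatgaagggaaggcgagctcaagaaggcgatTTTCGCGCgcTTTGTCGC
Rbl2 (chr8:91069957-91070056, plus strand): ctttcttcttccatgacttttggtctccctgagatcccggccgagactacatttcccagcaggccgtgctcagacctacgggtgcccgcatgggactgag
E2f8 (chr7:48881597-48881696, minus strand): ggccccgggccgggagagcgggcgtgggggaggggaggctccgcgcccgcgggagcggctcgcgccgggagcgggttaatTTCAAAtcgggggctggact
E2f3 (chr13:29986064-29986163, minus strand): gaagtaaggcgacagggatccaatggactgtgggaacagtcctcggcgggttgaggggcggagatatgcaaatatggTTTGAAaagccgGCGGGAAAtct
Tfdp1 (chr8:13338651-13338750, plus strand): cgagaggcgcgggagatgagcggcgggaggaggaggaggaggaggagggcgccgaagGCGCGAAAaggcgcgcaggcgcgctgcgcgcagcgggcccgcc

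Rbl1 held TTTNNCGC at 2 places, which begin 18 and 8 bases before the start, E2f3 held it once on the opposite strand and Tfdp1 once on the opposite strand. Another start is given for E2f3, whose window held neither motif, and for Tfdp1, whose window held the same match. TTTGAA was found in E2f3, and on the opposite strand in E2f8 and, farther from the start than the bases shown, in Rbl2. In the 250 bases before the start, 4.28% of all 32851 promoters in the table held TTTNNCGC and 16% held TTTGAA. For the 10084 promoters whose genes are listed in the CCNA-GFP table, these shares were 7.31% and 10.1%. The windows of E2f1 and E2f6 held neither motif, which says only that these letters are absent from them. For E2f1 the window begins at chr2:154569427 on the minus strand, inside the Gencode gene model, which extends to 154569892. The bases before the start of that model were thus not searched for E2f1.

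In asynchronous CCNA-GFP cells, the members were ordered E2f4 (5.62 ± 1.4 TPM, mean ± SD, n = 3), E2f3 (5.52 ± 1.8), Tfdp1 (5.23 ± 1.6), E2f1 (2.76 ± 0.70), E2f5 (2.72 ± 0.33), Rb1 (1.26 ± 0.21), E2f8 (1.25 ± 0.23), Rbl2 (1.24 ± 0.60), Rbl1 (0.759 ± 0.20) and E2f6 (0.475 ± 0.090). E2f4, E2f3 and Tfdp1 lay within their spread of each other, as did E2f1 and E2f5, and Rb1, E2f8 and Rbl2. In asynchronous -IAA cells, Tfdp1 (9.71 ± 1.8 TPM) stood first, before E2f3 (7.49 ± 2.3) and E2f4 (6.96 ± 1.7), and Rb1 (0.586 ± 0.059) came next to last, before E2f6 (0.452 ± 0.097). The tables of the lines were made separately, hence their levels are set side by side without a test.

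**Figure D1:**
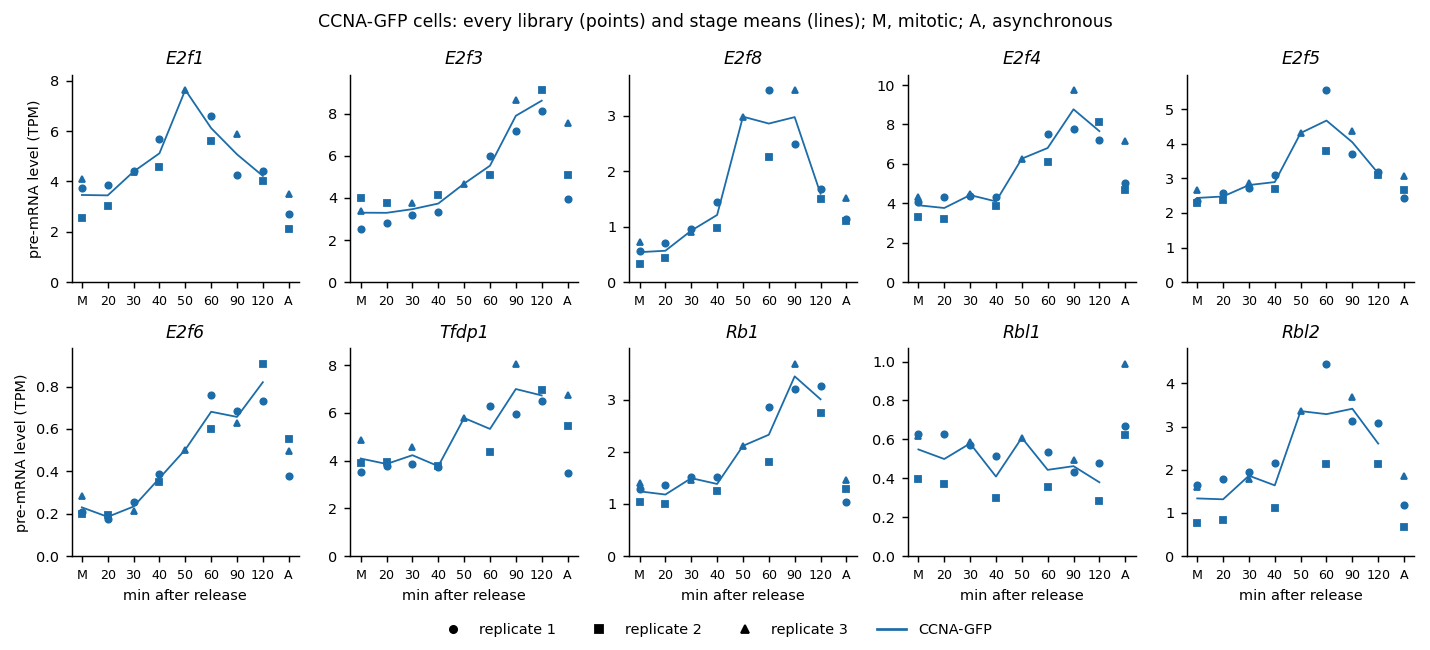
Pre-mRNA level (TPM, linear axis from 0) of the 10 members in every CCNA-GFP library, in mitotic (M) cells, at 20 to 120 min after release and in asynchronous (A) cells, with symbols for replicates 1 to 3 and a line through the stage means. The means at successive stages come from different sets of replicates, and 50 min is a single library. E2f1 and E2f8 rose and came down again by 120 min, E2f3 was highest at 120 min, and Rbl1 did not rise.

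The pre-mRNA of the members was compared with mitosis at each stage of the release, which asks when its level departs from that of mitotic cells. In CCNA-GFP cells, 9 of the 10 members rose by 60 min, all but Rbl1. E2f6 is among these, although it passed the authors' filter of 0.5 TPM only through its post-mitotic libraries. No member was called at 20 min or at 30 min, 3 were called higher at 40 min (E2f1, E2f8 and Rbl2), and 9 were called higher at 60, 90 and 120 min. Such a rise was general, since the share of all genes called higher at 20, 30, 40, 60, 90 and 120 min was 0%, 0.303%, 49.3%, 88.3%, 89.1% and 90.2%. At 20 min limma called none of the 9911 genes, with 253 of them and 0 members at an unadjusted p under 0.05, and at 30 min 1 member and 11.5% of all genes had such a p. The median difference of the members at 60 min was 0.73, against 0.79 over all genes. At equal totals, 1 member was called higher at 60 min (E2f8) and 7 were called lower, beside 36.4% and 33.3% of all genes, and E2f6 and Rbl2 were not called. On that scale E2f8 alone was called higher at 40 and 90 min, beside 23.7% and 31.8% of genes, and E2f8 and E2f6 at 120 min, beside 28.7%. The members called lower were 5 at 40 min (E2f4, E2f5, Tfdp1, Rb1 and Rbl1) and 4 at both 90 and 120 min (E2f1, E2f5, Tfdp1 and Rbl1), beside 31.3%, 26.2% and 23.5% of genes.

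In the -IAA arm of the CTCF-AID cells, the number of members called higher at 20, 40, 50, 60, 90 and 120 min was 0, 5, 8, 9, 8 and 8, those at 40 min being E2f1, E2f6, E2f8, Rb1 and Rbl2. The shares of all genes called higher at these stages were 0%, 63.3%, 79.1%, 84.8%, 74.8% and 69.6%. One member, Rbl1, was called lower at each stage from 40 min on, beside 3.21%, 4.56%, 2.7%, 3.37% and 3.15% of all genes at 40, 50, 60, 90 and 120 min. The +IAA arm gave 0, 5, 7, 8, 8 and 7 members higher at 20, 40, 50, 60, 90 and 120 min, beside 0%, 58.7%, 78.2%, 82.2%, 73.8% and 68.2% of all genes, with Rbl1 again called lower from 40 min on, beside 3.87%, 5.37%, 4.04%, 4.41% and 4.42%. At 20 min limma called no gene in either arm, with 0 members and 397 genes (-IAA) or 149 genes (+IAA) at an unadjusted p under 0.05. At equal totals 4 members were called higher at 60 min in each arm, namely E2f6, E2f8, Rb1 and Rbl2, a share like that of all genes (39.4% without and 40.7% with IAA). Those called lower were 4 without IAA (E2f1, E2f5, Tfdp1 and Rbl1) and 6 with IAA (these, E2f3 and E2f4), beside 31.1% and 33.2% of genes. At the other stages without IAA, E2f1 and E2f8 were higher at 40 min (33.3% of genes), and E2f6, E2f8, Rb1 and Rbl2 at 50, 90 and 120 min (40.7%, 34.5% and 32% of genes). Lower were 4 members at 40 min (E2f4, E2f5, Tfdp1 and Rbl1), 5 at 50 min (these and E2f3) and 3 at both 90 and 120 min (E2f1, E2f5 and Rbl1), beside 36.7%, 33.6%, 25.6% and 25.9% of genes.

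**Figure D2:**
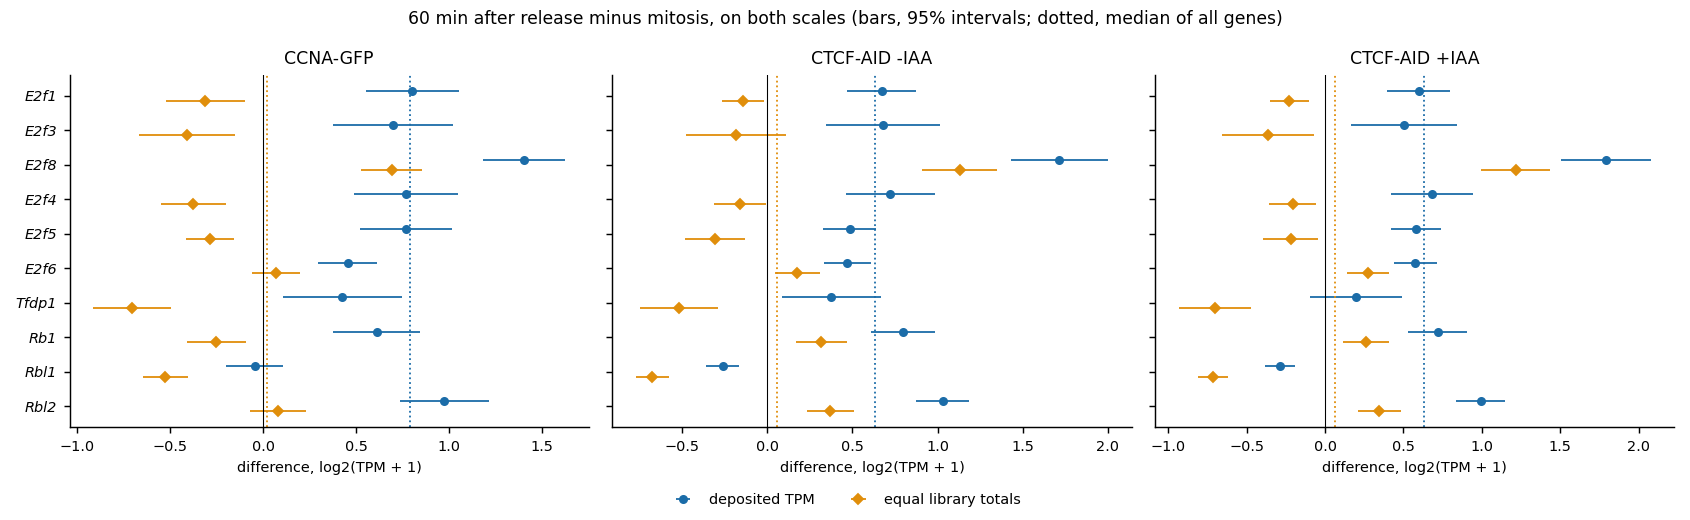
Difference between 60 min and mitosis on the log2(TPM + 1) scale for each member in CCNA-GFP, CTCF-AID -IAA and CTCF-AID +IAA cells, as deposited (circles) and with all libraries set to the same total (diamonds), with 95% intervals and the median of all genes as dotted lines. E2f8 stayed to the right of 0 on both scales in the 3 panels, and Rbl1 was the member farthest to the left on the deposited scale.

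E2f1, an activator that drives entry into S phase, rose early. Its level in CCNA-GFP cells was 3.73, 2.56 and 4.10 TPM in mitosis, 3.88 and 3.02 at 20 min, 4.42 and 4.37 at 30 min and 5.68 and 4.56 at 40 min. It then reached 7.64 TPM in the single library at 50 min, 6.62 and 5.62 at 60 min, 4.25 and 5.90 at 90 min and 4.40 and 4.04 at 120 min. All libraries at 40 to 60 min stood above the 3 mitotic ones, and the asynchronous libraries, at 2.70, 2.10 and 3.49 TPM, overlapped the mitotic ones. The difference from mitosis was 0.58 ± 0.12 at 40 min (adjusted p = 0.00051) and 0.80 ± 0.12 at 60 min (adjusted p = 3.0e-06), and was larger in 18.5% and 49.2% of all genes, respectively.

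In CTCF-AID cells without IAA, E2f1 was at 3.70, 3.47 and 4.14 TPM in mitosis, 7.61 and 6.16 at 40 min, 8.16 and 8.68 at 50 min, 6.09 and 6.14 at 60 min and 4.40 and 4.47 at 120 min. The libraries at 50 min were the highest, with no overlap with mitosis. The log2 differences from mitosis at 40, 50 and 60 min were 0.81, 0.91 and 0.67 (each ± 0.10), and 15.8% of genes had a larger one at 40 min. The calls at 120 min were lost without replicate 2 in both lines and, in the -IAA arm, also without replicate 3, while those at 90 min were lost without replicate 3 in both lines and, in CCNA-GFP, also without replicate 2. At equal totals the difference at 60 min turned negative in both lines, to -0.31 in CCNA-GFP and -0.14 in the -IAA arm, both called.

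E2f3, the other activator of the list, rose later and was not called lower at 120 than at 60 min. In CCNA-GFP cells it stood at 2.51, 3.99 and 3.40 TPM in mitosis, 3.32 and 4.14 at 40 min, 5.97 and 5.09 at 60 min, 7.17 and 8.63 at 90 min and 8.11 and 9.13 at 120 min. The 120 min libraries were above all 3 asynchronous ones (3.94, 5.07 and 7.56 TPM). The difference from mitosis grew from 0.70 ± 0.16 at 60 min to 1.26 ± 0.16 at 120 min (adjusted p = 4.0e-07), where 7.35% of genes had a larger one, and at equal totals it was 0.29 at 120 min and not called. The call at 60 min was lost without replicate 1.

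Without IAA, E2f3 of CTCF-AID cells was at 3.78, 6.69 and 5.64 TPM in mitosis, 8.03 and 8.94 at 60 min and 7.85 and 11.6 at 120 min. Its replicates stood far apart, with the second above the first in mitosis and at 120 min. The difference from mitosis was 0.68 ± 0.16 at 60 min and 0.84 ± 0.16 at 120 min (adjusted p = 9.4e-05), the former lost without replicate 1. At equal totals the difference at 60 min was -0.41 in CCNA-GFP, called lower, and -0.18 in the -IAA arm, not called.

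Tfdp1, the DP1 partner, showed at 60 min the smallest rise among the 9 members that rose in CCNA-GFP cells. It was at 3.52, 3.89 and 4.86 TPM in mitosis, 3.74 and 3.80 at 40 min, 6.28 and 4.38 at 60 min and 6.50 and 6.98 at 120 min. The 60 min libraries overlapped the mitotic ones, while those at 120 min were above them. The log2 difference was 0.43 ± 0.15 at 60 min (adjusted p = 0.014), a call lost without replicate 1, without the replicate block and on a scale that divides each library by its own rounding step, and 0.73 ± 0.15 at 120 min (adjusted p = 0.00017). Without IAA it was 0.38 ± 0.14 at 60 min, lost without replicate 1 and without the block, and 0.56 ± 0.14 at 120 min. In the +IAA arm it was 0.20 ± 0.14 at 60 min and not called (adjusted p = 0.19). At equal totals Tfdp1 was called lower at 60 min in CCNA-GFP, -IAA and +IAA cells, by -0.71, -0.52 and -0.70.

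E2f8, the atypical repressor, had the largest rise of the 10 members at 60 min. In CCNA-GFP cells it was at 0.557, 0.332 and 0.731 TPM in mitosis, 0.954 and 0.905 at 30 min, 1.45 and 0.972 at 40 min, 3.46 and 2.26 at 60 min, 2.49 and 3.47 at 90 min and 1.69 and 1.50 at 120 min. Every library from 30 min on was above the mitotic ones, and the mean at 60 min was 5.30 times that of mitosis. The log2 difference was 0.61 ± 0.11 at 40 min and 1.40 ± 0.11 at 60 min (adjusted p = 3.8e-10), exceeded by 13.2% of genes. At equal totals it was 0.69 and called.

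E2f8 of the -IAA arm was at 1.07, 0.366 and 0.828 TPM in mitosis, 3.53 and 1.89 at 40 min, 5.19 and 5.17 at 50 min, 5.26 and 3.46 at 60 min and 2.12 and 1.79 at 120 min. The mean at 50 min was 6.88 times the mitotic mean, and the groups did not overlap from 40 min on. The log2 difference at 60 min was 1.72 ± 0.14 without IAA and 1.79 ± 0.14 with IAA, in each case exceeded by 2.08% of genes. It remained called at equal totals, at 1.13 and 1.22, and in every alternative processing.

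E2f4 and E2f5, the repressors that act with pocket proteins, parted after 60 min. E2f4 was at 4.08, 3.32 and 4.30 TPM in mitotic CCNA-GFP cells, 7.50 and 6.12 at 60 min, 7.79 and 9.76 at 90 min and 7.19 and 8.13 at 120 min, and did not overlap mitosis at these stages. E2f5 was at 2.33, 2.29 and 2.67 TPM in mitosis, 5.56 and 3.78 at 60 min and 3.19 and 3.10 at 120 min. Their differences from mitosis at 60 min were the same to within the error, 0.77 ± 0.13 and 0.77 ± 0.12, whereas at 120 min that of E2f4 was 0.92 ± 0.13 and that of E2f5 0.33 ± 0.12. The latter call was lost without replicate 1 and without replicate 2. At equal totals both were called lower at 60 min, by -0.38 and -0.29.

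Without IAA, E2f4 of CTCF-AID cells rose from 7.37, 5.52 and 7.17 TPM in mitosis to 10.8 and 10.9 at 60 min and was at 8.65 and 8.53 at 120 min, the call at 120 min being lost without replicate 2, whereas E2f5 went from 2.76, 3.39 and 3.39 to 4.86 and 4.75 and then to 2.97 and 2.96. By 120 min E2f5 had thus returned among the mitotic libraries. The difference of E2f5 from mitosis was 0.48 ± 0.08 at 60 min and -0.07 ± 0.08 at 120 min (adjusted p = 0.44), the latter exceeded by 93.1% of genes. At equal totals the differences at 60 min were -0.16 for E2f4, not called, and -0.31 for E2f5, called lower.

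E2f6, which represses genes together with Polycomb proteins, had the lowest mean of the members in mitotic and asynchronous cells of both lines, while Rbl1 was lower from 60 min on. In CCNA-GFP cells it was at 0.209, 0.199 and 0.281 TPM in mitosis, 0.387 and 0.347 at 40 min, 0.761 and 0.601 at 60 min and 0.734 and 0.907 at 120 min. The mean at 120 min was 3.57 times the mitotic mean. The log2 difference was 0.45 ± 0.08 at 60 min and 0.57 ± 0.08 at 120 min, and on this scale it is small because the pseudocount of 1 exceeds the level of the gene. With a pseudocount of 0.1 the difference at 60 min was 1.26. The rounding step of the files was 0.0217 to 0.0381 TPM between CCNA-GFP libraries, which is coarse beside the mitotic values of this gene. E2f6 of the -IAA arm rose to 2.98 times the mitotic mean at 60 min and to 3.41 times at 120 min, with log2 differences of 0.47 ± 0.07 and 0.55 ± 0.07. The asynchronous means of E2f6 were 0.475, 0.452 and 0.451 TPM in CCNA-GFP, -IAA and +IAA cells, below the authors' filter of 0.5 TPM. E2f6 was thus listed only through its post-mitotic libraries, so that the filter favoured its rise over mitotic and asynchronous cells. At equal totals its difference at 60 min was called in both CTCF-AID arms, at 0.18 and 0.27, but not in CCNA-GFP, at 0.07.

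Of the 3 pocket proteins, Rb1 and Rbl2 rose after release and Rbl1 did not. Rb1, the retinoblastoma protein, was at 1.29, 1.03 and 1.41 TPM in mitotic CCNA-GFP cells, 1.52 and 1.25 at 40 min, 2.85 and 1.80 at 60 min, 3.21 and 3.69 at 90 min and 3.27 and 2.75 at 120 min. Libraries at 60 min and later stood above the mitotic ones, whereas the asynchronous libraries (1.04, 1.29 and 1.45 TPM) overlapped the mitotic ones. The log2 differences from mitosis at 60, 90 and 120 min were 0.61, 0.92 and 0.89 (each ± 0.11).

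Rb1 of CTCF-AID cells was at 0.457, 0.537 and 0.673 TPM in mitosis, 1.64 and 1.63 at 60 min, 1.80 and 2.40 at 90 min and 2.05 and 2.49 at 120 min without IAA. It was highest at 120 min in both arms, where its mean was 4.09 times the mitotic mean without IAA and 3.74 times with IAA. The log2 difference at 120 min was 1.10 ± 0.09 (adjusted p = 8.2e-10) and exceeded by 4.01% of genes. At equal totals the difference at 60 min was -0.25 in CCNA-GFP and 0.32 in the -IAA arm, both called, so that on that scale the direction at 60 min was opposite in the lines.

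Rbl2 (p130), best known from quiescent cells, rose in both lines, to a highest stage mean 2.56 times the mitotic mean in CCNA-GFP and 2.81 times in the -IAA arm. In CCNA-GFP cells it was at 1.64, 0.764 and 1.60 TPM in mitosis, 2.16 and 1.11 at 40 min, 4.45 and 2.12 at 60 min, 3.14 and 3.69 at 90 min and 3.08 and 2.13 at 120 min. The second replicate was low throughout, and within each replicate the 60 min library was above the mitotic one. The log2 difference at 60 min was 0.97 ± 0.11 (adjusted p = 1.2e-07), and at equal totals it was 0.08 and not called. The call at 40 min (0.30 ± 0.11) was lost on leaving out any of the 3 replicates.

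Rbl2 of the -IAA arm was at 1.59, 0.976 and 1.66 TPM in mitosis, 3.69 and 4.21 at 50 min, 4.09 and 3.12 at 60 min, 4.11 and 2.57 at 120 min and 1.25, 0.760 and 1.26 in asynchronous cells. The asynchronous mean was the lowest, and no library at 50 to 120 min fell below 2.57 TPM. The log2 difference from mitosis at 60 min was 1.03 ± 0.08 and, at equal totals, 0.37, both called.

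Rbl1 (p107), the paralog of Rbl2 and a well-known E2F target, was the single member that did not rise at any stage of the release. In CCNA-GFP cells it was at 0.627, 0.399 and 0.619 TPM in mitosis, 0.516 and 0.301 at 40 min, 0.608 in the single library at 50 min, 0.533 and 0.354 at 60 min and 0.477 and 0.282 at 120 min. Within each replicate the 60 min library was below the mitotic one, while the groups overlapped. The log2 differences at 40 to 120 min lay between -0.05 and -0.15 and were not called, the nearest to the threshold being -0.15 ± 0.07 at 90 min (adjusted p = 0.052). At 60 min, 97.4% of all genes had a larger difference. At equal totals the difference at 60 min was -0.53 and called lower.

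Rbl1 of the -IAA arm was at 0.783, 0.854 and 0.958 TPM in mitosis, 0.589 and 0.613 at 40 min, 0.553 and 0.572 at 50 min, 0.540 and 0.487 at 60 min, 0.548 and 0.658 at 90 min and 0.548 and 0.615 at 120 min. From 40 min on, no library reached the lowest mitotic one, and the mean at 60 min was 0.594 times that of mitosis. The log2 difference at 60 min was -0.26 ± 0.05 (adjusted p = 1.6e-05) without IAA and -0.29 ± 0.05 (adjusted p = 4.9e-06) with IAA. Both calls held in every alternative in which Rbl1 was tested, while the calls at 40 min were lost without replicate 2 and, with IAA, also without replicate 1, and the +IAA call at 120 min without replicate 1. Rbl1 is the other low member, with the step of the files at 0.0184 to 0.0280 TPM in CTCF-AID libraries.

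**Figure D3:**
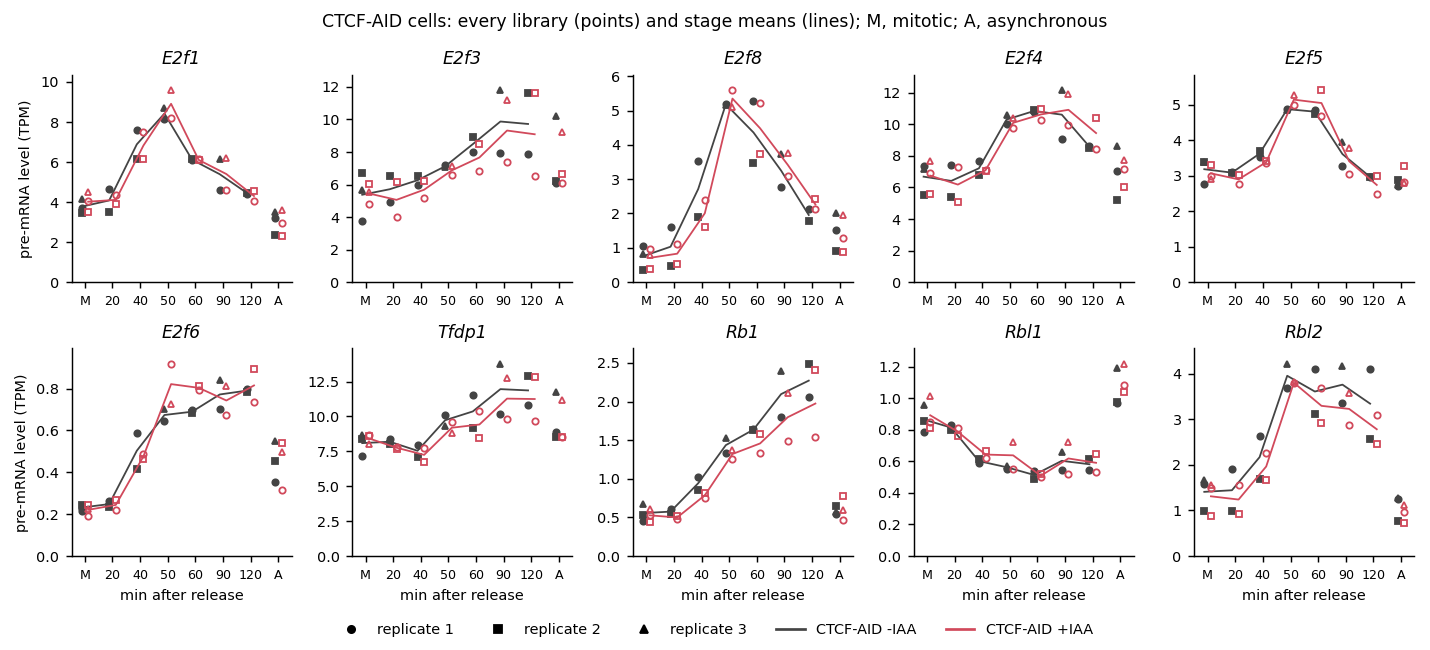
Pre-mRNA level (TPM, linear axis from 0) of the 10 members in every CTCF-AID library, without IAA (filled, grey) and with IAA (open, red), in mitotic (M) cells, at 20 to 120 min after release and in asynchronous (A) cells, with lines through the stage means. The points of the arms overlap at most stages, and Rbl1 went from 0.865 TPM in mitosis to 0.513 TPM at 60 min without IAA, with its highest levels in asynchronous cells.

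Whether the members passed the level of cycling cells, and whether they came down again, was asked by comparing 60 and 120 min with each other and with asynchronous cells. In CCNA-GFP cells, 7 members were above asynchronous at 60 min (all but E2f3, Tfdp1 and Rbl1) and 8 at 120 min (all but E2f5 and Rbl1), beside 67% and 63.4% of all genes. In the -IAA arm the numbers were likewise 7 and 8, beside 75.2% and 51% of all genes. E2f6 is counted each time, although it was listed only through its post-mitotic libraries, so that the filter favoured these calls. Rbl1 alone was called below asynchronous at 60 and 120 min in both, beside 8.6% and 5.86% of all genes in CCNA-GFP and 7.06% and 7.25% in the -IAA arm. Its difference from asynchronous at 60 min was -0.23 ± 0.07 in CCNA-GFP and -0.39 ± 0.05 in the -IAA arm, the former lost without replicate 1 and without replicate 2. At equal totals the members above asynchronous at 60 min were 3 in CCNA-GFP (E2f1, E2f8 and Rbl2) and 4 in the -IAA arm (those and Rb1), beside 35% and 37.5% of all genes. Below were 4 (E2f3, E2f4, Tfdp1 and Rbl1) and 3 (E2f3, Tfdp1 and Rbl1), beside 35.2% and 32.9%. At 120 min 2 were above in CCNA-GFP (Rb1 and Rbl2) and 4 in the -IAA arm (those, E2f1 and E2f6), beside 26.8% and 26.9% of genes, and E2f5 and Rbl1 were below in both, beside 24.9% and 27.7%. In CCNA-GFP at 60 min, the calls of E2f4, E2f5, E2f6 and Rb1 were lost without replicate 1, and that of E2f4 also without replicate 2. At 120 min, the calls of E2f4 and E2f8 were lost in both lines without replicate 2, as were that of Rbl1 in CCNA-GFP and those of E2f3 and Tfdp1 in the -IAA arm. Without replicate 1, the calls at 120 min of Tfdp1 in both lines, of E2f8 in CCNA-GFP and of E2f3 in the -IAA arm were lost. Division by the rounding step left 2 of the 8 calls at 120 min in each line. Over all genes, the calls of higher there went from 6280 to 2887 of 9911 in CCNA-GFP. In the -IAA arm they went from 5218 to 2136 of 10237. Rbl2 at 60 min exceeded asynchronous cells by 1.05 ± 0.11 in CCNA-GFP and 1.23 ± 0.08 in the -IAA arm on the log2(TPM + 1) scale, or 2.65 and 3.31 times in the means of TPM. Rb1 in the -IAA arm reached 3.88 times its asynchronous mean at 120 min.

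From 60 to 120 min, E2f1, E2f5 and E2f8 fell in both lines, beside 28.5% of all genes called lower in CCNA-GFP and 53.1% in the -IAA arm. E2f8 fell most, by 0.56 ± 0.11 on the log2 scale in CCNA-GFP (adjusted p = 0.00079) and by 0.84 ± 0.15 in the -IAA arm (adjusted p = 5.6e-05), and at equal totals it still fell, by 0.38 and 0.52. E2f5 fell by 0.43 ± 0.13 and 0.55 ± 0.08, and also fell at equal totals. E2f1 fell by 0.45 ± 0.13 and 0.39 ± 0.11, but at equal totals the differences of -0.27 and -0.05 were not called. In CCNA-GFP the calls of E2f8, E2f5 and E2f1 were lost without replicate 1, and that of E2f1 also without replicate 2. The fall of all genes there also rested on replicate 1. Without it, 631 of 9911 genes were called lower instead of 2824, and the median difference was 0.04 instead of -0.11.

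Over the same interval 1 member rose in each line, E2f3 in CCNA-GFP by 0.56 ± 0.17 (adjusted p = 0.012) and Rb1 in the -IAA arm by 0.31 ± 0.10 (adjusted p = 0.010), beside 9.6% and 7.31% of all genes called higher. E2f3 had a larger difference than all but 1.41% of genes, and Rb1 than all but 3.92%. Both calls were lost without replicate 2. At equal totals E2f3, E2f6, Rb1 and Tfdp1 were called higher in both lines, with E2f4 in CCNA-GFP and Rbl1 and Rbl2 in the -IAA arm, beside 24.4% and 25.6% of all genes, and E2f5 and E2f8 were called lower in both, beside 21.7% and 26.5%. In CCNA-GFP, the mean of E2f1 was 6.12 TPM and that of E2f3 5.53 TPM at 60 min, while at 120 min they were 4.22 and 8.62 TPM.

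**Figure D4:**
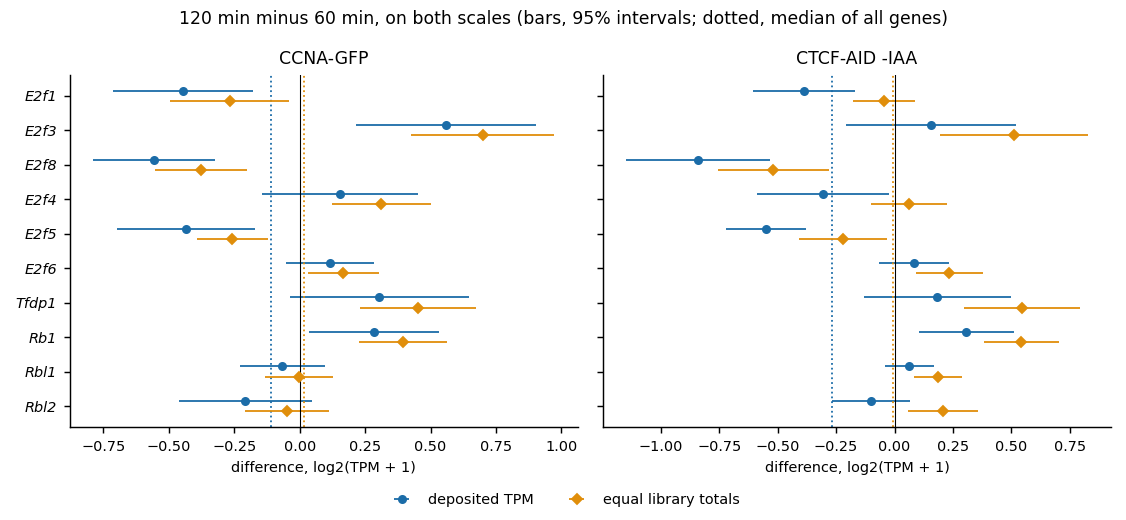
Difference between 120 and 60 min on the log2(TPM + 1) scale for each member in CCNA-GFP and CTCF-AID -IAA cells, as deposited (circles) and with all libraries set to the same total (diamonds), with 95% intervals and the median of all genes as dotted lines. E2f5 and E2f8 lay below 0 in both lines and on both scales, whereas the estimates of E2f3, E2f6, Tfdp1 and Rb1 lay above 0.

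Asynchronous cells differed less from mitotic ones. In CCNA-GFP, 5 members were called higher in asynchronous cells (E2f3, E2f4, E2f6, E2f8 and Rbl1) and 1 lower (E2f1), beside 70.4% and 1.97% of all genes. In the -IAA arm 4 were higher (E2f3, E2f6, E2f8 and Rbl1) and 2 lower (E2f1 and Rbl2), beside 34.3% and 5.25% of all genes, and in the +IAA arm likewise 4 and 2, beside 40.9% and 5.89%. E2f1 was lower by -0.25 ± 0.10 in CCNA-GFP, -0.25 ± 0.09 without IAA and -0.35 ± 0.09 with IAA, the CCNA-GFP call being lost without any of the 3 replicates and the -IAA call without replicate 2 and without replicate 3. Rbl1 was higher by 0.18 ± 0.06, 0.13 ± 0.04 and 0.16 ± 0.04, but at equal totals no call remained, with -0.06 in CCNA-GFP. On that scale E2f6 and E2f8 were called higher in CCNA-GFP and in the -IAA arm, beside 24.8% and 27.2% of all genes. Those called lower were 5 in CCNA-GFP (E2f1, E2f5, Tfdp1, Rb1 and Rbl2) and 3 in the -IAA arm (E2f1, E2f5 and Rbl2), beside 20.3% and 21.4%. Without replicate 3, the higher calls of E2f3, E2f4 and Rbl1 were lost in CCNA-GFP, all 4 in the -IAA arm and those of E2f3 and E2f8 in the +IAA arm. Without replicate 2, that of Rbl1 was lost in the 3 comparisons, and without replicate 1 that of E2f3 in both CTCF-AID arms and that of Rbl1 in the -IAA arm. Rbl2 in the -IAA arm was no longer called lower without replicate 2 or without replicate 3.

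Over the 9 stage means of CCNA-GFP cells on the log2 scale, Pearson's r between members describes how alike their courses were, on points that share libraries and the common rise. E2f8 was most like E2f5 (r = 0.967), E2f4 most like Tfdp1 (r = 0.973), and E2f3 most like E2f4 (r = 0.946). Rbl1 had a negative r with each other member, from -0.14 with Tfdp1 to -0.47 with Rb1, while E2f1 and E2f3 were nearly unrelated (r = 0.180). Among the 6808 genes averaging 1 TPM or more, those most like E2f1 were Depdc7 (r = 0.996), D030056L22Rik (r = 0.992) and Ddit3 (r = 0.991), and those most like Rb1 were Tmtc3 (r = 0.999), Slc8b1 (r = 0.998) and Gtf3c1 (r = 0.997).

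Other genes of the pathway were described from fixed lists. Of 10 further genes, namely E2F and DP members, DREAM subunits, Mybl2 and Foxm1, all 10 rose at 60 min in CCNA-GFP. In the -IAA arm 9 of them rose (not Mybl2). Their medians were 0.94 and 0.76, beside 88.3% and 84.8% of all genes called higher and all-gene medians of 0.79 and 0.63. At equal totals 5 of them were higher and 3 lower in each, beside the shares of all genes given above for 60 min (36.4% and 33.3% in CCNA-GFP, 39.4% and 31.1% in the -IAA arm). E2f7, the atypical partner of E2f8, had the largest rise, 1.84 ± 0.15 and 1.74 ± 0.14 at 60 min, and fell by 0.57 ± 0.16 from 60 to 120 min in CCNA-GFP. Rbbp4, a histone-binding DREAM subunit, rose by 1.71 ± 0.13 and 1.30 ± 0.12, and Tfdp2, which encodes the other DP partner, by 0.48 ± 0.11 and 0.49 ± 0.11.

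Of 14 cyclins, CDKs, inhibitors and regulators upstream of the pocket proteins, 12 were listed in CCNA-GFP and 11 in CTCF-AID. Among them 11 and 10, respectively, rose at 60 min, with medians of 1.69 and 1.40, where 88.3% and 84.8% of all genes rose. At equal totals again 11 and 10 were called higher and 1 lower, beside 36.4% and 39.4% of genes higher. Cdk2, the partner of cyclin E, rose by 2.14 ± 0.15 and 1.76 ± 0.14, and Cdk4, the partner of cyclin D, by 1.90 ± 0.15 and 1.51 ± 0.13. Cdk6, the other partner of cyclin D, was the exception, with 0.01 ± 0.11 and -0.15 ± 0.12 at 60 min, neither called. With IAA it was called lower than mitosis at 60 min, at -0.30 ± 0.12, and also at 120 min. At 50 min it was called lower than mitosis in both arms. Against asynchronous cells Cdk6 was called lower at 60 min, by -0.55 ± 0.11 in CCNA-GFP and -0.34 ± 0.12 in the -IAA arm, and at 120 min in both, while at 120 min in CCNA-GFP it was called above mitosis, by 0.30 ± 0.11. From 60 to 120 min, 9 of 12 and 10 of 11 fell, beside 28.5% and 53.1% of all genes, and at equal totals 8 and 9 fell, beside 21.7% and 26.5%.

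Of 25 textbook E2F targets, 24 rose at 60 min in each of CCNA-GFP, -IAA and +IAA cells, all but Pola1, with medians of 1.37, 1.15 and 1.16, beside 88.3%, 84.8% and 82.2% of all genes and their medians of 0.79, 0.63 and 0.63. At equal totals 17 were higher in each and 5, 5 and 3 lower, where 36.4%, 39.4% and 40.7% of all genes were higher and 33.3%, 31.1% and 33.2% lower. Cdt1, a licensing factor of replication origins, rose by 2.06 ± 0.18 in CCNA-GFP and 1.88 ± 0.17 in the -IAA arm. Pola1, a subunit of DNA polymerase alpha, was at 0.11 ± 0.12 and -0.04 ± 0.12. No gene of these lists was called between the IAA arms over the mean of the post-mitotic stages.

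Depletion of CTCF was examined by comparing +IAA with -IAA cells at each stage, with a call at an adjusted p under 0.1 and an absolute log2 difference above 0.2. No member was called by limma at any stage, with log2 differences between -0.28 and 0.14. Of the 80 values of members and stages, 0 had an unadjusted p under 0.05. From 23 (mitosis) to 286 (asynchronous cells) of the 10237 genes had such a p at a stage. The shares of all genes called in either direction were 0% in mitosis, then 0%, 0%, 0.283%, 0.225%, 0.733% and 0.586% over the successive stages from 20 to 120 min, then 1.01% in asynchronous cells. Without replicate 1, no gene was called at 90 or 120 min or in asynchronous cells. With the replicate number as a block, 0 members were called as well, with 2 of 80 at an unadjusted p under 0.05. On that fit, from 68 (mitosis) to 634 (asynchronous cells) of the 10237 genes had such a p at a stage. The genes called with the block were 101, 103, 175, 146 and 249 at 50, 60, 90 and 120 min and in asynchronous cells. Without the block these were 29, 23, 75, 60 and 103 genes.

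Averaged over the 6 post-mitotic stages, no member was called either, beside 1.72% of all genes. At an unadjusted p under 0.05 stood 1 of 10 members (Rb1) and 4.46% of all genes. Without replicate 1, 5 genes were called higher and 11 lower over this mean, against 38 and 138 with all replicates. Rb1 was lower with IAA in 12 of 12 pairs of same-numbered libraries from 20 to 120 min, for instance at 1.54 and 2.41 against 2.05 and 2.49 TPM at 120 min. Such a count was met by 3.38% of all genes, and the 12 pairs come from 3 replicate numbers, with the summed TPM itself lower with IAA in 9 of the 12 pairs. At equal totals Rb1 was still lower in all 12, as were 2.17% of genes, and its mean difference was -0.09, with a 95% interval (-0.18 to 0.00050) that held 0. As deposited the mean difference of Rb1 was -0.11 ± 0.05 (95% interval -0.22 to -0.0044, adjusted p = 1.0) and below that of 94.4% of genes. Rbl2 was lower in 11 of 12 pairs, by -0.12 ± 0.09 (95% interval -0.30 to 0.066), and E2f3 in 10 of 12, by -0.11 ± 0.11 (95% interval -0.34 to 0.12), where 9.66% of genes were lower in at least 11 pairs and 19.4% in at least 10. With the replicate block the 95% intervals of Rbl2 (-0.18 to -0.048) and Rb1 (-0.19 to -0.027) left 0 out. On this fit 2 of 10 members and 1070 of 10237 genes had an unadjusted p under 0.05, and 217 genes were called. The adjusted p was then 0.053 for Rbl2, which passed the threshold on p but not that on size, and 0.21 for Rb1.

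Tfdp1 was lower in 12 of 12 pairs as deposited, as were 3.38% of genes, by -0.08 ± 0.07. At equal totals Tfdp1 was lower in 10 pairs, where 10.8% of genes were lower in at least 10. On that scale E2f3 and Rbl2 were lower in at least 11 pairs, as were 5.54% of genes. As deposited, E2f1 (0.01 ± 0.07), E2f4 (0.01 ± 0.08), E2f5 (-0.03 ± 0.05), E2f6 (0.03 ± 0.03), E2f8 (-0.02 ± 0.11) and Rbl1 (0.02 ± 0.03) lay within 0.03 of 0. The 95% intervals allowed differences as far as -0.25 and 0.21 for E2f8 but only -0.053 to 0.085 for Rbl1. With the replicate block they were narrower, from -0.14 to 0.11 for E2f8 and from -0.027 to 0.058 for Rbl1. The difference between the post-mitotic and the asynchronous effect of IAA was not called for any member by limma (0 of 10 at an unadjusted p under 0.05 and 0.00977% of all genes called), the farthest from 0 being Rb1 at -0.13 ± 0.12.

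**Figure D5:**
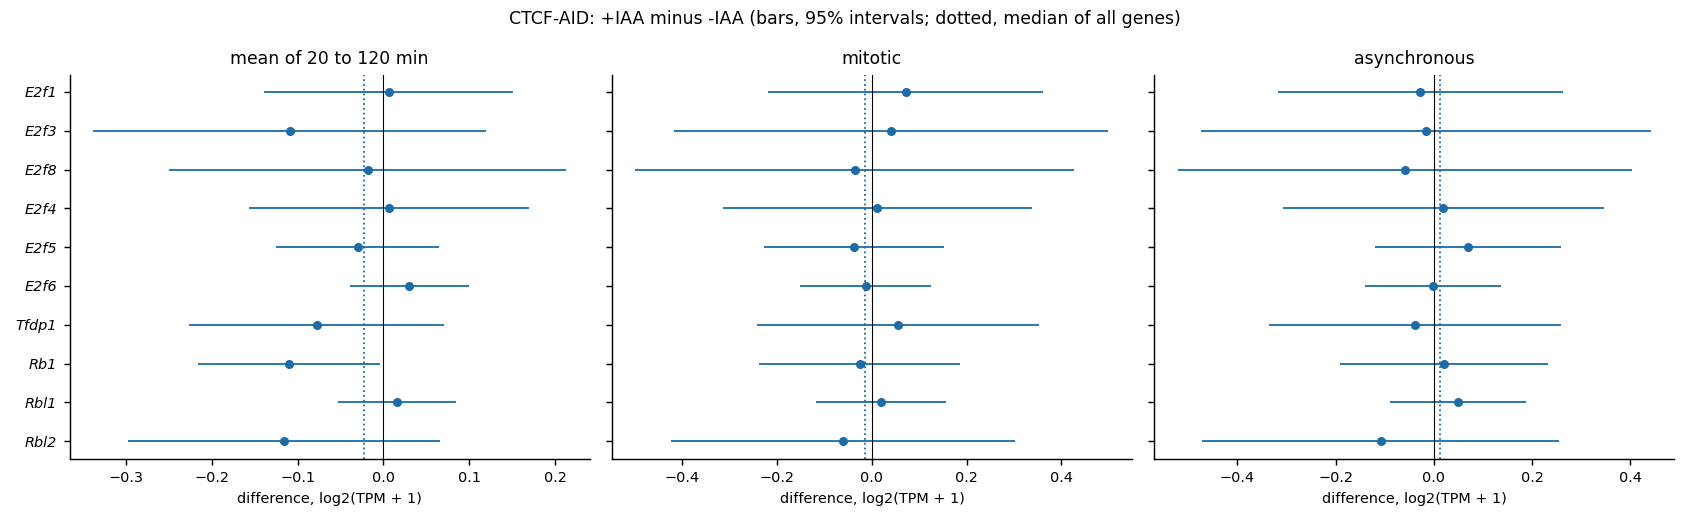
Difference between +IAA and -IAA CTCF-AID cells on the log2(TPM + 1) scale for each member, averaged over 20 to 120 min, in mitosis and in asynchronous cells, with 95% intervals and the median of all genes as dotted lines. The post-mitotic means lay between -0.12 and 0.03, and in this fit without the replicate block only the interval of Rb1 left 0 out, whereas with the block that of Rbl2 did so too.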

How the data were processed

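Pre-mRNA was measured by ribo-depleted, stranded, paired-end RNA-seq in 55 libraries. The authors aligned reads to mm10 with STAR, quantified them with RSEM on Gencode annotation to which a pre-mRNA isoform per gene had been added, and deposited TPM values for genes above 0.5 TPM in enough samples. Read counts per library are not in the tables used here, so that the depth is unknown, and no replicate was pooled. Deposited values below 0.5 TPM were whole multiples of a step that differed between libraries (tolerance 0.02 of a step), by a factor not given in the sources used here. No column of per-sample values was left unused (0).

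Here, log2(TPM + 1) was fitted with limma 3.58.1 (R 4.3.3, eBayes with trend) on all genes of each table, separately for each line, with Benjamini-Hochberg adjustment over all genes. Contrasts between stages held the replicate number as a block, and those between IAA arms did not. Same-numbered libraries deviated together from their group means in all 41 pairs of CCNA-GFP (r from 0.130 to 0.802) and all 100 of CTCF-AID (r from 0.134 to 0.884), so that the numbers pair the samples. Scripts were tested on simulated data. Alternatives were a pseudocount of 0.1, equal totals, division by the rounding step, a mean of at least 1 TPM, the other choice of block and leaving out each replicate. The 50 min CCNA-GFP library entered the fit but no call was made for it.

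The members and the gene lists were chosen with earlier results of these data known. All members were named, with the 3 genes most like E2f1 and Rb1 and, of each further list, the 2 genes with the highest and the 1 with the lowest difference at 60 min in CCNA-GFP. One gene that this rule names is not reported here. Promoters were those of RefSeq, searched with Python 3.11.15. Proteins were not used here.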

Additional observations from a re-analysis of the deposited data

Results flagged for a closer look

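E2f5 in asynchronous against mitotic cells differed in opposite directions in the lines on the deposited scale. The asynchronous mean was 1.12 times the mitotic mean in CCNA-GFP cells, higher in 3 of 3 replicates, and 0.872 times in the -IAA arm of CTCF-AID cells, lower in 3 of 3 replicates. The +IAA arm gave 0.967 times, also lower in 3 of 3. The difference between the lines was not tested, since their tables were made separately, and neither line's own difference was called (adjusted p = 0.32 in CCNA-GFP and 0.092 in the -IAA arm by limma). At equal totals E2f5 was called lower in asynchronous cells of both, by -0.34 in CCNA-GFP and -0.30 in the -IAA arm, so that the opposite direction was not present on that scale. No group held enough libraries to look for a single one apart from the rest.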

How the results depend on the processing

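Setting all libraries to the same total changed most. The calls of members higher than in mitosis went from 35 to 7 over the 6 stages tested and asynchronous cells in CCNA-GFP, and from 81 to 41 likewise over both arms of CTCF-AID, and at 60 min from 9 to 1 in CCNA-GFP, from 9 to 4 without IAA and from 8 to 4 with IAA. On that scale the log2 difference at 60 min reversed for E2f1 (-0.31, -0.14 and -0.23 in CCNA-GFP, -IAA and +IAA), E2f3 (-0.41, -0.18 and -0.36), E2f4 (-0.38, -0.16 and -0.21), E2f5 (-0.29, -0.31 and -0.22) and Tfdp1 (-0.71, -0.52 and -0.70), for Rb1 in CCNA-GFP (-0.25), and from 60 to 120 min for Rbl2 in the -IAA arm (0.21). In the other comparisons, 14 further calls of higher became calls of lower, namely E2f1, E2f5 and Tfdp1 at 90 and 120 min and E2f4 at 60 min against asynchronous cells in CCNA-GFP, E2f3, E2f4 and E2f5 at 50 min and E2f1 at 90 and 120 min without IAA, and E2f4 at 50 min and E2f1 at 90 min with IAA. Of the reversals at 60 min against mitosis, 13 were likewise calls of higher that became calls of lower. The others at 60 min were called on a single scale. Equal totals remove by construction the rise shared by all genes. Calls of members higher at 120 against 60 min, and at both stages against asynchronous cells, were 32. They were 16 on the rounding-step scale and 20 without the replicate block, and the cause was not tested. Calls of higher over all genes also became fewer in these comparisons. At 120 min against asynchronous CCNA-GFP cells they went from 6280 to 2887 and 3533 of 9911, respectively. Leaving out a replicate gave 30 to 32, 68 to 76 and 24 to 33 calls, where the full sets of libraries gave 35, 81 and 32. No member was called between the IAA arms under any alternative, the replicate block included. The filter at a mean of 1 TPM left out E2f6 and Rbl1. Single differences of members were recomputed for 60 min against mitosis, 120 against 60 min and the post-mitotic mean between the IAA arms only. Of these 468, 415 kept their side of the threshold, and also their direction where either value was called. Where neither value was called, a change of direction was not counted. The unknown depth leaves the precision of E2f6 and Rbl1 open beyond the spread between replicates.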
